A study of Xenopus laevis with 12 samples.

Results

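The response of frog foregut endoderm to the highest of the retinoic acid doses tested, 500 nM, was described against vehicle. The comparison used 6 of the 12 libraries of the study, chosen by their labels: 3 libraries at 500 nM retinoic acid (RA) and 3 vehicle libraries in 0.1% DMSO. A DMSO content is given for the vehicle libraries only, not for those with RA. All 44478 gene IDs of the deposited tables were included, and 24454 of them had enough counts to be tested. Per the labels, foregut endoderm was dissected from wild-type Xenopus laevis embryos (NXR_0031, the African clawed frog) at Nieuwkoop-Faber (NF) stage 15, the explants were kept at 15 °C for 16 hours until NF stage 25, and 8 explants were pooled for each library. The remaining 6 libraries came from explants at 25 and 200 nM RA. Nothing in the labels tells if pools within a group had separate clutches or days, so p-values cover only variation among these pools, which may be technical.

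RA is a small lipid made in the embryo from vitamin A. It binds nuclear receptors, the RARs, which pair with RXRs on DNA and change the transcription of target genes. Classic direct targets in vertebrates are Hox genes, which give cells their position along the head-to-tail axis, and Cyp26 enzymes, which break RA down. In the foregut, the embryonic tube section that forms pharynx, lung, liver and pancreas, RA signalling is known for setting the boundaries between organ domains. The deposited tables name genes by ID only, and 0 of the IDs matched the RefSeq gene table of assembly Xenopus_laevis_v10.1. No gene names, gene groups or roles are therefore given, and the foregut label was not checked against marker genes.

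The DMSO libraries held 17782601 to 24513744 counts, and those at 500 nM held 21619433 to 39147729. Spearman correlations of log2 CPM (counts divided by library size after TMM scaling) across IDs were 0.989 to 0.993 between libraries of a group and 0.958 to 0.970 between DMSO and 500 nM libraries. IDs are not independent replicates. By chi-square, the library of 500 nM replicate 2 stood apart from replicates 1 and 3. Its median absolute log2 differences from them were 0.149 and 0.143, against 0.143 to 0.150 within DMSO and 0.131 between replicates 1 and 3. IDs at least 2-fold apart numbered 1302 and 1250 in its pairs, against 1065 to 1153 within DMSO and 760 between replicates 1 and 3. A chi-square test of counts gave 28.9 and 26.4 per degree of freedom for its pairs with replicates 1 and 3, against 2.91 to 5.81 for the other 4 pairs of replicates. In its pair with replicate 1, 10 IDs made up 80.4% of the chi-square. Of these, 6 belonged to 32 IDs in 11 sets whose counts were identical in all libraries, so that their reads cannot be assigned to 1 ID. The 32 IDs held 6.42%, 2.28% and 6.61% of the counts in 500 nM replicates 1, 2 and 3 and 3.74% to 5.59% under DMSO. By the rule given next, 2 of the 32 were called and 0 of them at 2-fold, against 44.9% and 9.27% of all 24454 IDs tested.

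With TMM scaling, close to equal numbers of IDs rose and fell at 500 nM RA, and most of these changes were small. An ID was called when the adjusted p of edgeR's quasi-likelihood test, fitted to all 12 libraries, was under 0.05. By this rule 44.9% of the IDs tested were called, 5459 higher (22.3%) and 5529 lower (22.6%) than in DMSO. The median log2 fold change was 0.53 for the IDs that rose (median SE 0.10) and -0.44 for those that fell (median SE 0.09). Among the called IDs, 1291 higher and 1853 lower changed by less than 1.25-fold. Scaled by library totals, the median log2 fold change of all IDs tested moved from -0.01 to -0.10, and 3807 IDs were higher and 6655 lower. Limma on log2(TPM + 1) called 3360 IDs higher and 5105 lower. The balance of rises and falls thus depends on the scaling. Rises made up 49.7% of the calls with TMM, 49.2% with DESeq2 size factors and 36.4% with library totals. On TPM they made up 39.7%, but limma also differs in the test and in the IDs tested.

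Changes of at least 2-fold were reached by 9.27% of the IDs tested, 1102 higher (4.51%) and 1165 lower (4.76%). Scaled by library totals, 925 were higher and 1394 lower at 2-fold, so that rises made up 39.9% in place of 48.6%. Larger falls outnumbered larger rises with all libraries. At least 4-fold changes numbered 242 rises and 393 falls, at least 8-fold changes 65 and 117, and at least 16-fold changes 25 and 39. With each of the 6 libraries left out in turn, falls stayed more numerous at 4-fold (251 to 301 rises, 352 to 596 falls) and at 8-fold (73 to 124 rises, 114 to 245 falls), but not at 16-fold. Without DMSO replicate 3 there were 124 rises and 125 falls of at least 8-fold, and 45 rises and 42 falls of at least 16-fold. Without DMSO replicate 2 there were 98 rises of at least 8-fold. Without 500 nM replicate 1 the falls numbered 596, 245 and 96 at 4-, 8- and 16-fold. When the test itself asked for a change beyond 2-fold (glmTreat in edgeR), 398 IDs were higher and 399 lower.

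**Figure D1:**
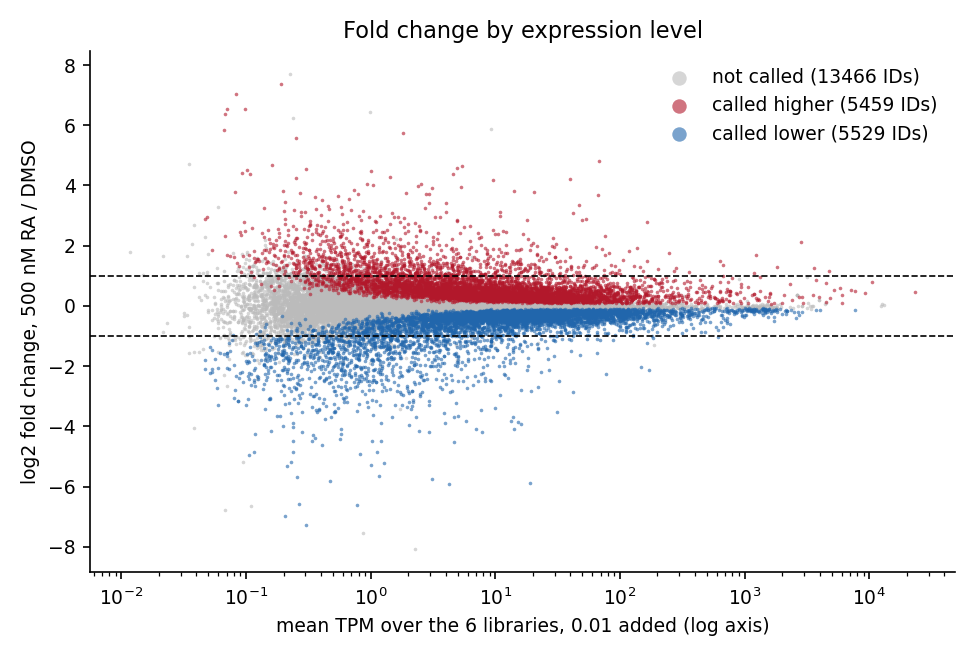
Each point is 1 of the 24454 gene IDs tested, placed by its mean TPM over the 3 DMSO and 3 libraries at 500 nM RA (log axis) and by its log2 fold change of 500 nM RA over DMSO. Red points were called higher (5459), blue points lower (5529) and grey points not called, and the dashed lines mark 2-fold changes. The cloud narrows to the right: called changes are smaller at higher TPM levels, from a median of 1.40 log2 units under 1 TPM to 0.18 at 1000 TPM and over. By CPM levels the highest level does not continue this fall (0.31, against 0.28 in the level below).

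The size of the called changes differed between expression levels. Levels were set by the deposited TPM, which is scaled to transcript length and so can be compared between IDs, as the mean over the 6 libraries. Of 5885 IDs under 1 TPM, 25.1% were called, and the called changes had a median size of 1.40 on the log2 scale. From 1 to 10 TPM 41.7% of 10675 IDs were called, with a median size of 0.57. From 10 to 100 TPM 62.7% of 6656 IDs were called, with a median size of 0.34. From 100 to 1000 TPM 73.8% of 1031 IDs were called, with a median size of 0.30. At 1000 TPM and over 60.4% of 207 IDs were called, with a median size of 0.18. Over all levels 44.9% were called. With levels set by CPM, which is not scaled to length, the median size fell from 1.70 under 1 CPM to 0.73, 0.35 and 0.28 in the following levels, but it was 0.31 at 1000 CPM and over, so the fall at the top rests on the TPM scale.

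Precision changed along with the level. The median standard error of the log2 fold change fell from 0.43 under 1 TPM to 0.14, 0.064, 0.038 and 0.032 in the following levels, and the median count per library rose from 18 to 18142. Under 1 TPM, 73.2% of the called changes were at least 2-fold. This share was 20.6% from 1 to 10 TPM, 5.78% from 10 to 100 TPM, 2.89% from 100 to 1000 TPM and 4.80% at 1000 TPM and over. The median size over all IDs of a level, called or not, also fell, from 0.51 under 1 TPM to 0.28, 0.22, 0.22 and 0.13, and these medians hold counting noise as well. The call rule itself favours larger called changes where the standard error is large. How much of the trend comes from precision was not tested.

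Rises and falls were not balanced in the same way at each level. From 1 to 10 TPM 2419 IDs rose and 2037 fell, while from 100 to 1000 TPM 310 rose and 451 fell. At 1000 TPM and over 46 rose and 79 fell, with a median log2 fold change of 0.38 for the rises and -0.15 for the falls. With levels set by CPM, 53 IDs at 1000 CPM and over rose and 17 fell, so the direction at the top depends on the level scale. Scaled by library totals, falls outnumbered rises in each TPM level, with 1704 rises and 2541 falls from 1 to 10 TPM, 212 and 503 from 100 to 1000 TPM, and 34 and 96 at 1000 TPM and over. All 6 IDs at 1000 TPM and over that changed at least 2-fold were rises, and each was at least 2-fold higher in each of the 3 RA libraries.

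**Figure D2:**
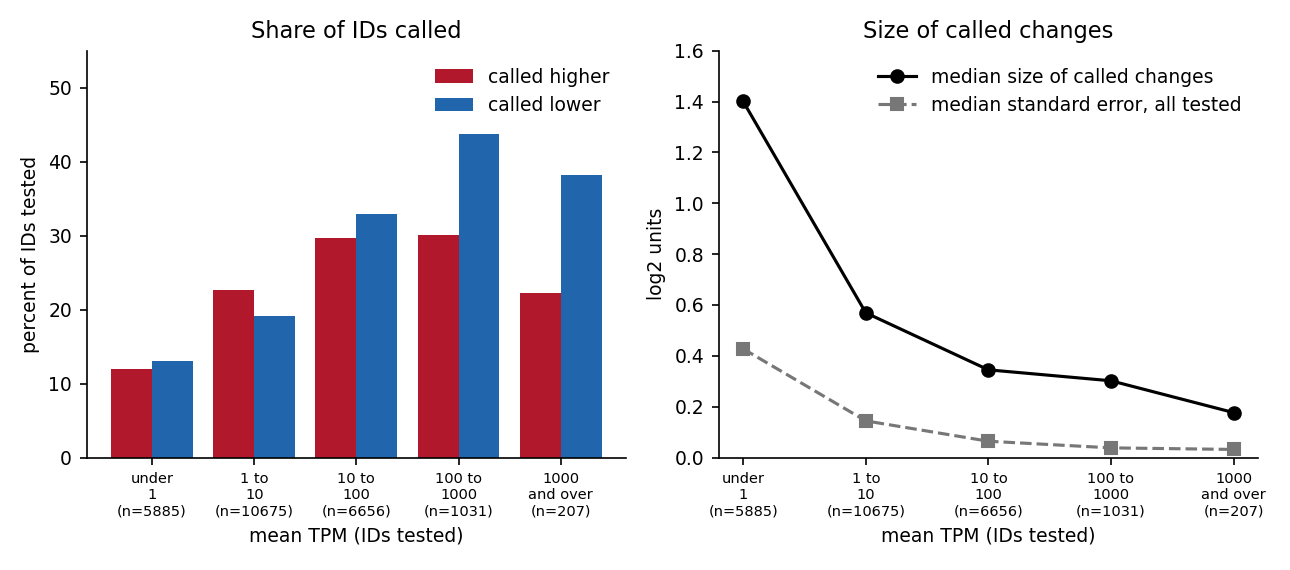
Left, the percent of the IDs tested that were called higher (red) or lower (blue) at 500 nM RA, in 5 levels of mean TPM with the number of IDs tested under each. Right, the median absolute log2 fold change of the called IDs (circles) and the median standard error of all IDs tested (squares) in the same levels. Called changes fall from 1.40 to 0.18 log2 units and the standard error from 0.43 to 0.032, while by CPM levels called changes stand at 0.31 in the highest level and 0.28 in the one below.

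The response moved a sizeable share of the libraries' counts. The IDs called higher held 33.7%, 33.1% and 33.6% of the counts in DMSO replicates 1 to 3 and 41.5%, 44.6% and 41.9% in 500 nM replicates 1 to 3. The IDs called lower held 33.4%, 32.6% and 33.0% in DMSO and 25.1%, 25.1% and 24.4% at 500 nM. In neither set did the groups overlap, which the choice of the IDs by their calls favours. Most of the shift lay in changes under 2-fold, since the 1102 IDs at least 2-fold higher went from 1.43% ± 0.0160 to 3.67% ± 0.227 of the counts, and the 1165 IDs at least 2-fold lower from 0.930% ± 0.00639 to 0.292% ± 0.0318 (SD, n = 3 each).

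Gains lay in few IDs and losses in many. Of the summed gain in mean CPM of the IDs that rose, 50% lay in 67 IDs, and 26.7% in the top 10. Of the summed loss, 50% lay in 442 IDs, and 6.83% in the top 10. The 67 IDs had a median log2 fold change of 0.54 and a median level of 1198 TPM, and 13 of them rose at least 2-fold. The 442 IDs had a median of -0.38 and a level of 167 TPM, and 39 of them fell at least 2-fold. None of the 67 and 442 IDs belonged to the sets with identical counts. With the same calls and only the CPM scaled by library totals, the 50% lay in 58 and 428 IDs.

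Among IDs that changed at least 2-fold without overlap between the groups, XBXL10_1g23921 had the largest gain in mean CPM. It stood at 1258, 1287 and 1281 CPM in DMSO and at 5454, 5657 and 5394 CPM at 500 nM in replicates 1 to 3. Every RA library lay far above every DMSO library, where the rule asks for no overlap, and the RA libraries lay close together. The rise from 1275 ± 15.5 to 5502 ± 138 CPM (SD, n = 3 each) was a log2 fold change of 2.11 (SE 0.027, edgeR adjusted p 2.12e-51), and this single ID made up 3.63% of the summed gain. On the deposited TPM scale its mean went from 1111 to 4569 TPM. At the lower doses it was at 4169 to 4332 CPM (25 nM) and 4005 to 4084 CPM (200 nM). The ID was chosen by its values in DMSO and at 500 nM, and its SE and p make no allowance for that.

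The ID with the largest loss in mean CPM by the same rule was XBXL10_1g35001. Its values in DMSO were 481, 474 and 470 CPM, and at 500 nM they were 236, 232 and 225 CPM. The groups were well separated, where the rule asks for no overlap, although the change only just passed 2-fold. From 475 ± 5.76 to 231 ± 5.82 CPM (SD, n = 3 each), the log2 fold change was -1.04 (SE 0.032, edgeR adjusted p 1.85e-33). It made up 0.393% of the summed loss. It stood at 330 to 356 CPM at 25 nM and at 279 to 290 CPM at 200 nM. Its SE and p, too, make no allowance for the choice of the ID by its values.

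**Figure D3:**
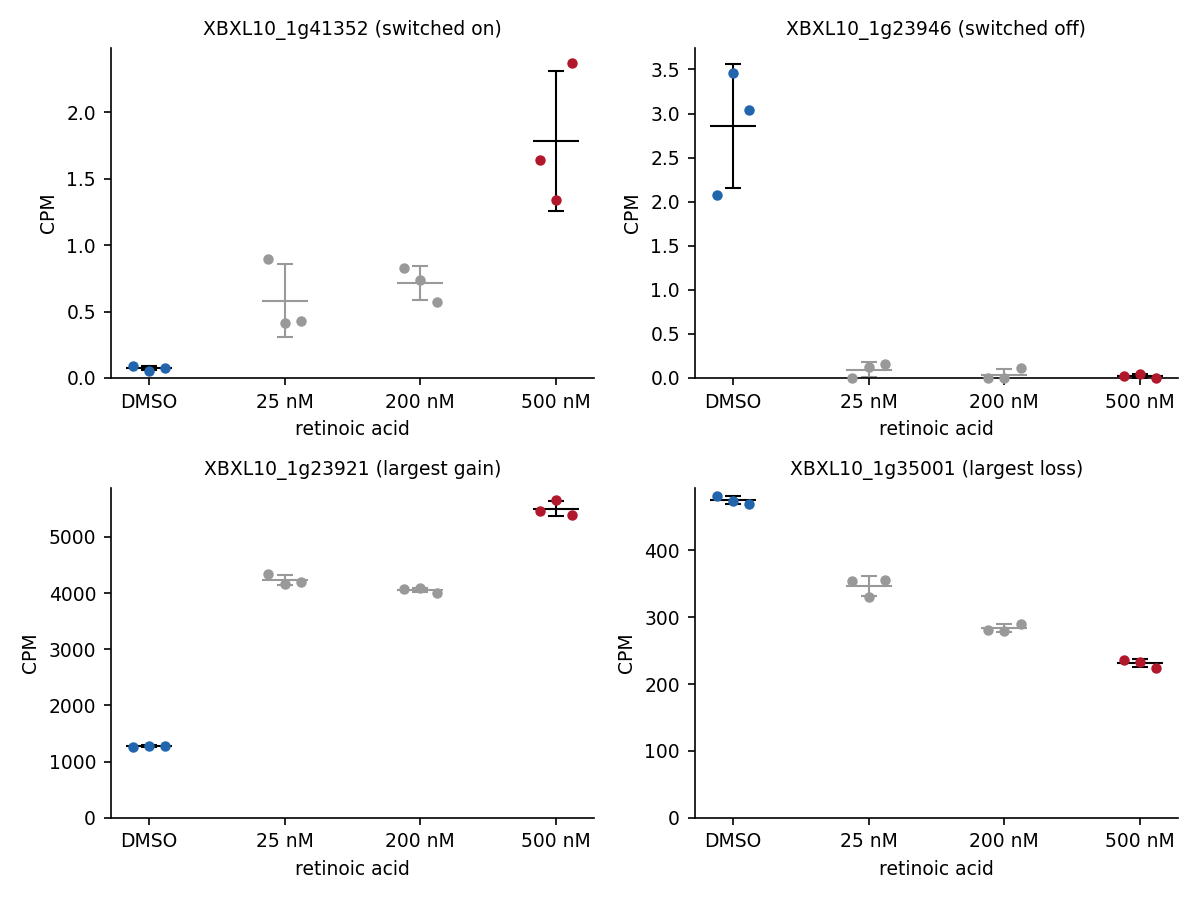
CPM of 4 gene IDs in every library by RA dose, 3 libraries per dose, with blue points for DMSO, red points for 500 nM and grey points for the other doses. The horizontal bar is the mean and the error bar its SD (n = 3). XBXL10_1g23921 rises to 5502 CPM and XBXL10_1g35001 falls to 231 CPM at 500 nM with little spread, while XBXL10_1g41352 and XBXL10_1g23946 stay under 4 CPM in all libraries.

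Few IDs passed from silence to clear expression or the reverse. An ID was counted as switched when it was under 0.1 CPM in each library of 1 group and at least 1 CPM in each library of the other. By these limits 1 ID was switched on and 4 were switched off at 500 nM, out of 44478 IDs. Thinned to equal depth, 0 were switched on and 3 off. With 1 library left out, the numbers were 1 to 3 on and 4 to 7 off: 2 on without DMSO replicate 1, 3 on without 500 nM replicate 2, and 7 off without 500 nM replicate 1 or 3. These IDs were chosen by their values, so they are described without a test of the set. An ID with 0 counts in all 3 libraries of 1 group and at least 1 CPM in each library of the other was not found in either direction.

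The ID switched on was XBXL10_1g41352. It had 2, 1 and 2 counts in the DMSO libraries and 62, 29 and 53 counts in the 500 nM libraries, which is 0.0744 ± 0.018 CPM against 1.78 ± 0.529 CPM (SD, n = 3 each). The groups lay wide apart, with the highest CPM in 500 nM replicate 3. Over the summed counts the ratio was 23.3 (exact 95% binomial interval 9.74 to 72.7, counting error only), and the fitted log2 fold change was 4.47 (SE 0.72, edgeR adjusted p 2.72e-10). The ID was chosen by these same values, so the gap, interval and p restate the rule in part. On the TPM scale the 500 nM libraries stood at 2.64, 2.01 and 1.25 TPM, with replicate 3 the lowest, so the order of the replicates depends on the unit. At 25 nM it was at 0.415 to 0.899 CPM and at 200 nM at 0.575 to 0.826 CPM, between both groups.

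Of the 4 IDs switched off, XBXL10_1g23946 had the highest level in DMSO. It had 46, 63 and 78 counts in the DMSO libraries and 1, 1 and 0 counts at 500 nM. That is 2.86 ± 0.708 CPM against 0.0243 ± 0.0232 CPM (SD, n = 3 each), with a wide gap between the groups. The level in DMSO was 116 times that at 500 nM over the summed counts (exact 95% binomial interval 31.6 to 963, counting error only), and the fitted log2 fold change was -6.60 (SE 1.19, edgeR adjusted p 1.20e-12). This ID too was chosen by these values, and the gap, interval and p make no allowance for that. At 25 nM it had 0 to 4 counts and at 200 nM 0 to 3 counts per library. The 4 IDs had means of 1.20 to 2.86 CPM in DMSO and 0 to 2 counts in the 500 nM libraries.

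Looser limits gave more IDs, still few and with more switched off than on. Under 0.2 CPM in 1 group and at least 1 CPM in the other, 6 IDs came on and 13 went off. Under 0.1 CPM against at least 0.5 CPM, the numbers were again 6 and 13. The TPM values with the original limits gave 4 on and 6 off. Under 0.5 CPM against at least 2 CPM, limits chosen after seeing the data, 9 IDs came on and 22 went off. The 9 IDs reached means of 2.33 to 5.09 CPM at 500 nM and the 22 IDs came from means of 2.15 to 10.9 CPM in DMSO, so that 1 of the 31 passed 10 CPM. With each library left out in turn, 10 to 12 came on and 23 to 33 went off. Of the 9, 3 were at 2 CPM or more in every library at 25 nM and 4 at 200 nM. Of the 22, 6 were under 0.5 CPM in every library at 25 nM and 3 at 200 nM.

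**Figure D4:**
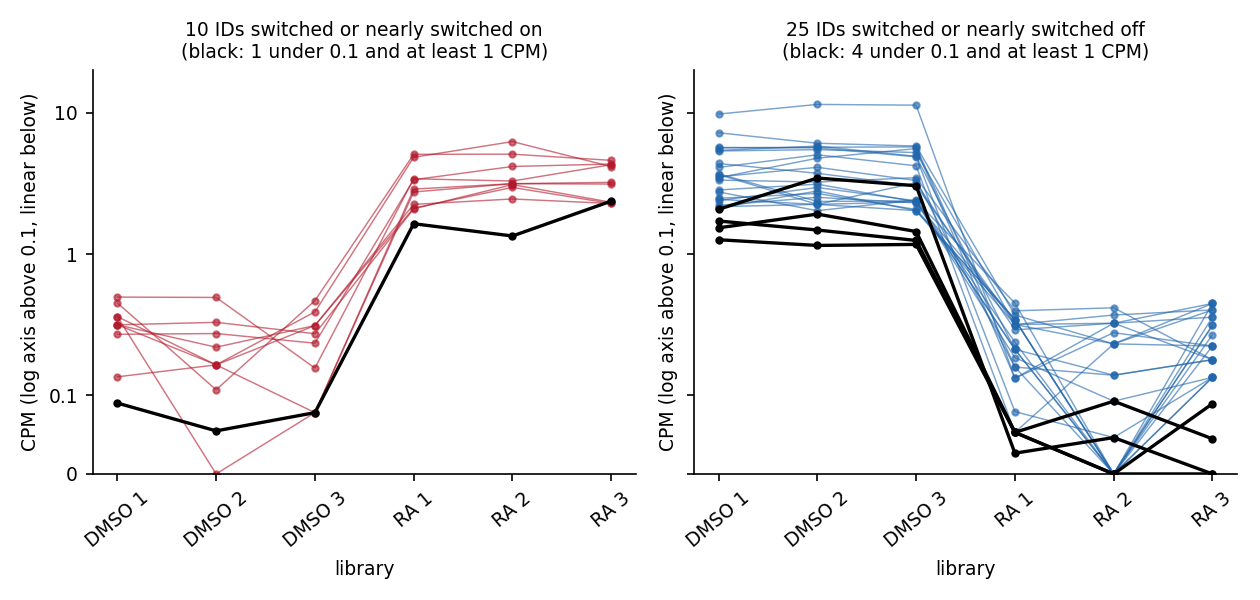
CPM in the 3 DMSO and 3 libraries at 500 nM RA of the IDs under 0.5 CPM in 1 group and at least 2 CPM in the other (colour), and of those under 0.1 and at least 1 CPM (black); a line joins the values of 1 ID and the axis is logarithmic above 0.1 CPM and linear below. The left panel shows 10 IDs that came on and the right panel 25 that went off. Several of the latter sit at 0 in 500 nM replicate 2 and above 0 in replicates 1 and 3.

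Large fold changes were mostly changes of weakly expressed IDs that kept some counts. Of the 242 rises and 393 falls of at least 4-fold, 136 and 236 were of IDs under 1 TPM, and 26 and 23 of IDs at 10 TPM or more. Of all 24454 IDs tested, 5885 were under 1 TPM. From 10 to 100, 100 to 1000, and 1000 TPM and over there were 6656, 1031 and 207. Under 1 TPM the median SE was 0.43, and the call rule favours large changes there. The group with the lower level had a median of 0.299 CPM for the rises and 0.220 CPM for the falls. It was at 0 counts in all 3 libraries for 7 of the rises and 4 of the falls. The fitted sizes of those depend on the default prior count of the edgeR fit, not on the 2 used for log2 CPM. In 82 of the rises and 136 of the falls even the group with the higher level had a mean under 1 CPM.

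The number of IDs detected did not separate the groups. At the deposited depth 29604 to 30200 IDs had a count under DMSO, against 29704 to 31104 at 500 nM, with the highest value in the deepest library. Thinned to the shallowest total, 29511 to 29646 IDs were detected in DMSO and 29334 to 29748 at 500 nM, so the ranges overlapped. IDs with 0 counts in all DMSO libraries and at least 10 counts over the 500 nM libraries numbered 95, and the reverse was true of 58. After thinning these numbers were 50 and 72, so that the order of the pair changed with depth.

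Most called changes held in each of the 3 replicates in the sense that the groups did not overlap. The calls were made from these same values, so the choice of IDs favours this. Over all IDs tested, the 3 RA values lay all above or all below the 3 DMSO values for 52.1%, 25.8% above and 26.3% below. Of the called IDs, 5182 rises (94.9% of the rises and 21.2% of the IDs tested) and 5235 falls (94.7% of the falls and 21.4% of the IDs tested) were without overlap. Among called changes of at least 2-fold, 36 rises and 58 falls overlapped. The share of called IDs without overlap was 91.6% under 1 TPM and 97.9% from 100 to 1000 TPM. Over all IDs tested in these levels, called or not, 2017 of 5885 and 802 of 1031 were without overlap.

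A change of at least 2-fold in each of the 3 RA libraries was less frequent. Each RA library was compared with the mean of the DMSO libraries on log2 CPM with a prior count of 2. Over all IDs tested, 3.33% rose and 2.92% fell by 2-fold or more in each of the 3. Of the 1102 IDs called with a 2-fold rise, 778 (70.6%) held it in 3 libraries, 250 in 2 and 74 in 1. Of the 1165 with a 2-fold fall, 706 (60.6%) held it in 3 libraries, 355 in 2, 102 in 1 and 2 in 0. Asking that each RA library differ by 2-fold from each DMSO library left 459 rises and 499 falls among the called IDs, 1.88% and 2.04% of the IDs tested. The share of 2-fold changes held in each RA library rose with the level. It went from 58.5% under 1 TPM to 68.4%, 82.2%, 90.9% and 100% in the following levels. The shares of 90.9% and 100% rest on only 22 and 6 IDs, against 1080 under 1 TPM.

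The 3 RA libraries differed from DMSO to unequal degrees, and more so in the falls. Their depth also differed, with 39147729, 21619433 and 23181210 counts in replicates 1 to 3. The values below were not recomputed at equal depth, so the part of depth was not tested. Over the 1102 rises the median log2 difference from DMSO was 1.35 in replicate 1, 1.44 in replicate 2 and 1.38 in replicate 3. Over the 1165 falls it was -1.32, -1.92 and -1.49. Replicate 2 had the largest change of the 3 for 49.1% of the rises and 62.5% of the falls, and replicate 1 the smallest for 45.3% and 51.7%. Replicate 1 was the only library short of 2-fold for 101 rises and 191 falls. On the opposite side of the DMSO mean lay 2 of the rises in replicate 2, 0 in replicates 1 and 3, and 0 of the falls in each replicate.

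**Figure D5:**
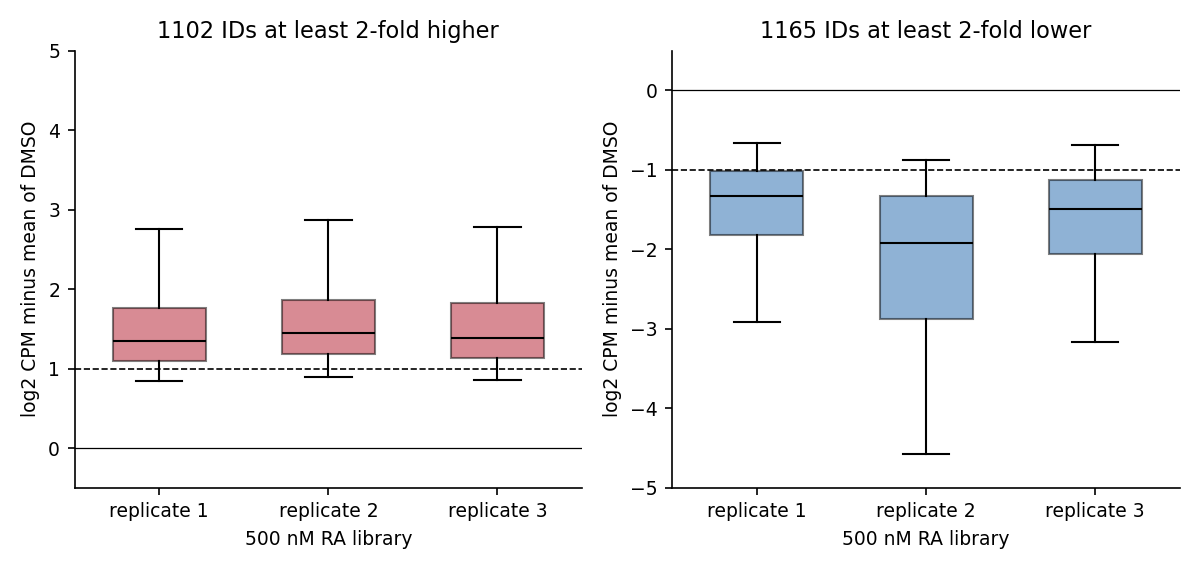
Log2 CPM of each 500 nM RA library minus the mean of the 3 DMSO libraries, for the 1102 IDs called at least 2-fold higher (left) and the 1165 called at least 2-fold lower (right). Boxes span the 25th to 75th percentiles with the median as a line, whiskers the 5th to 95th percentiles, and the dashed line marks 2-fold. The medians of the rises lie between 1.35 and 1.44, while those of the falls are -1.32, -1.92 and -1.49, with replicate 2 the lowest.

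Spread within groups was compared in the same sets. Over all IDs tested the median SD of log2 CPM was 0.133 in DMSO and 0.124 at 500 nM. For the 2-fold falls it was 0.208 in DMSO and 0.427 at 500 nM, and the 500 nM libraries were at least 2-fold apart for 480 of the 1165 IDs. For the 2-fold rises it was 0.287 in DMSO and 0.165 at 500 nM, and the DMSO libraries were at least 2-fold apart for 262 of the 1102 IDs. In both sets the spread was larger in the group with fewer counts. How much of it was counting noise was not tested.

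A part of the falls was much deeper in replicate 2. For 255 of the 1165 IDs, replicate 2 was at least 2-fold under both replicate 1 and replicate 3. Replicate 1 lay under the other 2 in this way for 5 IDs, and replicate 3 for 13. This was not counted over all IDs tested, so it is not shown to be particular to the falls. As an example among IDs not called, XBXL10_1g10681 lay at -0.055, -2.842 and -0.057 log2 units from the DMSO mean in replicates 1 to 3. The 255 IDs were chosen by these values, so they are described only. Their median CPM was 1.62, 1.59 and 1.52 in DMSO replicates 1 to 3 and 0.529, 0.0463 and 0.447 at 500 nM. In percent of each ID's DMSO mean, the medians were 37.9%, 1.86% and 28.9% in 500 nM replicates 1 to 3, and 113 of the IDs had 0 counts in replicate 2. Counts were low in this set, and 157 of the 255 IDs had a mean TPM under 1. The median count was 33 in DMSO, 15 in 500 nM replicates 1 and 3, and 1 in replicate 2. The other 910 falls stood at 36.1%, 28.7% and 32.7%. The libraries were closer there, which follows in part from taking out the 255 IDs. Of the 255 IDs, 245 had no overlap with DMSO, a share close to that of all 2-fold falls (1107 of 1165), and 52.1% of all IDs tested had none.

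The same 255 IDs were low at 25 nM, with medians of 8.48% to 9.51% of the DMSO mean, and not low at 200 nM, with 138%, 136% and 94.6% in replicates 1 to 3. The other 910 falls had medians of 46.6% to 48.7% at 25 nM and 56.9% to 58.2% at 200 nM. In bulk RNA, fewer cells of a type and less RNA per cell cannot be told apart, and no marker genes could be read from the IDs, so whether the makeup of the pools differed was not tested. Without 500 nM replicate 2, 5013 IDs were called higher and 4960 lower, 1065 rose and 1045 fell at least 2-fold, and 869 rises and 796 falls held at least 2-fold in both remaining RA libraries. Then 3 IDs in place of 1 were switched on, and 4 were switched off.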

How the data were processed

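Counts and TPM were read for 12 libraries, of which the 3 DMSO and 3 libraries at 500 nM RA are described. The authors deposited TPM and expected counts, the latter already whole (rounding changed 0 values). RSEM 1.3.0 and Bowtie2 are named in the submitters' processing notes, with annotation, genome build and roles not given in the sources used here. Reads are divided by RSEM when several genes match them, so counts of near-identical copies, such as pairs on the L and S chromosomes, are estimates. Per the labels' protocols, libraries came from a stranded mRNA kit. A row that names no gene held 0 counts and was left out.

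The analysis used R 4.3.3 and edgeR 4.0.16: filterByExpr (minimum count 10), TMM factors, and a robust quasi-likelihood fit of 4 groups to all 12 libraries, since 3 against 3 gives a poor estimate of spread. Benjamini-Hochberg adjustment ran over 24454 IDs. Standard errors came from the fitted information and quasi-likelihood dispersion, with counting error as lower bound. Log2 CPM used a prior count of 2. The steps were tested on simulated data. Replicate pairs differed by more than sampling noise, so each library counted once. Deviations of same-numbered libraries correlated at -0.00647, -0.00464 and 0.0202, and the labels do not pair them, so no pairing was assumed.

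Named IDs were, by rule, the switched-on ID highest at 500 nM, the switched-off ID highest in DMSO, and the largest gain and loss in mean CPM among 2-fold changes without overlap. The lists of gene symbols and cell type markers that had been set could not be used without symbols. The limits and rules were chosen with earlier results of these data known. Alternatives were DESeq2 1.42.0 and its size factors, other filters, limma 3.58.1 on log2 TPM, the 6 libraries alone, a replicate block, single libraries left out, thinning to equal depth, and other limits.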

Additional observations from a re-analysis of the deposited data

How the results depend on the processing

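Of 280 alternative values, 246 stayed within the limits used here. These were the same direction and side of the threshold for an ID, and within 1.5 times for a count or percent. For a median size the limit was its SD over replicates. All 66 alternative values of the 4 named IDs kept direction and side. These 66 are among the 246, and the 4 IDs were chosen as extremes of the same data, which favours this. XBXL10_1g23946 did not pass the TPM filter of the filtered limma runs and has no value there. Limma (19979 IDs with TPM filter, 36544 without) works on TPM, which has a fixed total and for which the pseudocount shrinks changes of low IDs. It called 3360 IDs higher and 5105 lower with log2(TPM + 1), 3364 and 5078 with log2(TPM + 0.1) and 3536 and 5297 without filter, and at least 2-fold changes were 767 (341 higher, 426 lower), 1359 (609 and 750) and 751 (334 and 417). By glmTreat the 2-fold changes were 797 (398 and 399). Asking for 2-fold between each pair of libraries left 958 IDs (459 rises). IDs switched on and off were 6 and 13 under 0.2 CPM, 6 and 13 with 0.5 CPM as upper limit, 0 and 0 at 0 counts, 9 and 22 with limits of 0.5 and 2 CPM; 4 came on by TPM and 0 after thinning to equal depth. With single libraries left out, 1 to 3 IDs were switched on and 4 to 7 off: 2 on without DMSO replicate 1, 3 on without 500 nM replicate 2, and 7 off without 500 nM replicate 1 or 3. The cause of these shifts was not tested, beyond that fewer libraries have fewer limits to meet. With levels set by CPM, the median size of called changes was 1.70 in the lowest level and 0.31 in the highest, and with library totals it was 0.24 in the highest TPM level. The counts of 4- to 16-fold changes with libraries left out, the library total scaling, the limits of 0.5 and 2 CPM, and levels refitted with DESeq2 size factors or without 500 nM replicate 2 were added after seeing the data. With single libraries left out, 9953 to 10450 IDs were called, 2110 to 2427 at 2-fold and 9817 to 10307 without overlap. The replicate block called 10966 IDs, 2251 of them at 2-fold, and changed no call of a named ID; the 6 libraries alone gave 10589 and DESeq2 10180. Under 1 TPM the median count per library was 18. Thinning to equal depth left 25.9% of the IDs called in that level, with a median size of 1.40.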
